A study of Mus musculus with 34 samples.

Results

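The genes described here are 8 CC chemokines, Ccl2, Ccl3, Ccl4, Ccl5, Ccl6, Ccl7, Ccl9 and Ccl12, and Ccr2, the main receptor of inflammatory monocytes. They were taken as every probe set that the platform table gives to 1 gene only, where that gene was 1 of these 9. The 9 are among 11998 genes that had a tested probe set. They had 14 of the 45101 probe sets of the array. Of these, 11 passed the filter on low values, against 24573 of all probe sets, and each of the 9 genes kept at least 1. The 3 that did not pass were further Ccr2 probe sets, whose group means lay between 2.17 and 3.22 on the log2 scale.

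RNA came from the thoracic spinal cord of C57BL/6J mice (backcrossed over 20 generations, 8 to 12 weeks old) that were trkB.T1 wild type (WT) or trkB.T1 knockout (KO). trkB.T1 is the truncated form of TrkB, which the gene Ntrk2 encodes and to which brain-derived neurotrophic factor binds. Cords were taken from controls labelled sham, or on day 1, 3 or 7 following a moderate contusion of the thoracic cord. The sources used here do not say whether the controls had an operation. There were 34 Affymetrix arrays, each labelled as a biological replicate: sham WT 4, sham KO 4, day 1 WT 5, day 1 KO 4, day 3 WT 4, day 3 KO 5, day 7 WT 4 and day 7 KO 4.

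CC chemokines are small secreted proteins that draw leukocytes along a gradient through G-protein-coupled receptors. Ccl2, Ccl7 and Ccl12 act on Ccr2 and call monocytes out of the bone marrow and into injured tissue. Ccl3, Ccl4 and Ccl5 draw macrophages and T cells, Ccl3 and Ccl5 in part through Ccr1, and Ccl6 and Ccl9 are mouse chemokines that act on Ccr1. In the injured cord, astrocytes, microglia and invading macrophages are known sources. In the RefSeq table of mouse assembly GRCm38.p6 the ligands lie in 2 runs of neighbours on chromosome 11: Ccl2, Ccl7, Ccl11, Ccl12 and Ccl8 in one, and Ccl5, Ccl9, Ccl6, Ccl3 and Ccl4 in the other. Ccr2 lies on chromosome 9.

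A separate promoter table of the same assembly held promoters for 5 of the 9 genes (Ccl12, Ccl3, Ccl6, Ccl9 and Ccr2). Those of Ccl6 and Ccl9 are shown because the pattern of each neighbour was nearest to that of the other, and that of Ccl12 because it was the Ccr2 ligand furthest above sham at day 7. Each is the 250 bases before the annotated gene start, 5′ to 3′ on the gene's strand, and capitals mark matches to the motifs searched. The Ccl12 window is chr11:82101595-82101844 on the plus strand, that of Ccl6 is chr11:83593088-83593337 and that of Ccl9 is chr11:83578637-83578886, both on the minus strand.
Ccl12: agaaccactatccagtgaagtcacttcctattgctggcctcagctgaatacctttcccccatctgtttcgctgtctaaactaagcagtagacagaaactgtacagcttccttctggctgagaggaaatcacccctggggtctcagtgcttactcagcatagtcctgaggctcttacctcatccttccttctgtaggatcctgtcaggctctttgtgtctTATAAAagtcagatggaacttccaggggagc
Ccl6: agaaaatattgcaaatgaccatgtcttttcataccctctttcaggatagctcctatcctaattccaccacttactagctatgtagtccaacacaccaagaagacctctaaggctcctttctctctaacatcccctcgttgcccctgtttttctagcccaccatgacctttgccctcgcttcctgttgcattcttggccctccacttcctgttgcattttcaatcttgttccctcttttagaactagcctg
Ccl9: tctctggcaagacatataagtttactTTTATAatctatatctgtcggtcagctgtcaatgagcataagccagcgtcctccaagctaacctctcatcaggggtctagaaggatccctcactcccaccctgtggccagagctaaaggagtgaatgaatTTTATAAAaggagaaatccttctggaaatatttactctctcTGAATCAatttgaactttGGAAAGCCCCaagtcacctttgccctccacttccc

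The motifs were searched on both strands: the NF-kB consensus, AP-1 (TGANTCA), C/EBP (TTGCNNAA), SP1 (GGGCGG) and a TATA box (TATAAA). Among 32841 promoters of the same length in the table, 7.25% held the NF-kB consensus, 6.75% AP-1, 9.57% C/EBP, 32.7% SP1 and 12.4% the TATA box. Ccl12 held a TATA box at positions -31 to -26, where -1 is the base before the gene start. Ccl9 held the NF-kB consensus at -35 to -26 on the minus strand, AP-1 at -53 to -47, and 3 TATA box matches, 2 of which overlap. The windows of Ccl3, Ccl6 and Ccr2 held none of these letters, which says nothing about the factors themselves. Over windows that run 50 bases past the start, Ccl6 and Ccl9 shared a stretch of 67 aligned bases with 58 identical (86.6%), at -59 to 15 in Ccl6 and -18 to 49 in Ccl9. The other pairs aligned over 11 to 42 bases.

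Values are GCRMA log2 signals: 1 unit is a doubling, and each probe set has a background floor near which differences cannot be seen. Levels of different genes are not compared, since each probe set has its own brightness. Differences are given ± standard error (SE), and a gene was called where limma's Benjamini-Hochberg adjusted p over all tested probe sets was under 0.05. Where a group mean lay within 0.5 of the probe set's lowest value, the fold against that group is a lower bound and is written "at least". This held for Ccl3, Ccl5, Ccl7 and Ccr2 in both sham groups, Ccl2 in sham WT, Ccl9 in sham KO and Ccl5 at day 3 in WT. These are whole pieces of cord, so more cells of a type and more RNA per cell cannot be told apart.

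Several arrays stood apart or went against a label. Day 1 WT replicates 1 and 2 carry other source and time words (day 7 and sham), and their titles were followed. They correlated with the rest of the day 1 WT group at 0.9950 and 0.9939, against 0.9916 to 0.9950 for the other day 1 WT arrays. For Ccl2 they read 10.03 and 9.93, against 5.48 to 5.73 in day 7 WT and 2.58 to 3.82 in sham WT. The library labelled sham KO replicate 2 kept a signal for Ntrk2, the gene changed in the KO (9.46, against 3.31 to 4.91 in the other sham KO arrays on 1 Ntrk2 probe set). Another Ntrk2 probe set read 8.59 in that library and 2.83 in every other KO array. Day 3 WT replicate 2 and day 3 KO replicate 3 had the lowest correlation with the rest of their group (0.9641 and 0.9640; next lowest 0.9824). The 4 day 7 KO arrays were the most alike, with pairs at 0.9951 to 0.9960 against at most 0.9940 in any other group, so their spread may be smaller than that of separate animals. Group means of the 3′ minus 5′ actin signal, a measure of RNA integrity, were 1.97 (WT) and 2.08 (KO) in sham, 1.72 and 1.77 at day 1, 1.49 and 1.50 at day 3, and 1.85 and 1.94 at day 7. Its part in the results was not tested.

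All 9 genes rose at day 1 and then parted ways. At day 1 all 9 genes were higher than in sham of the same genotype in WT, where 24.0% of all tested probe sets were called higher, and all 9 in KO, where 20.9% were. At day 3 it was 7 of 9 in WT (background 26.1%) and 8 of 9 in KO (28.2%). At day 7 it was 8 of 9 in WT (21.8%) and 7 of 9 in KO (19.8%). The median member difference was 4.63 in WT and 5.21 in KO at day 1, 3.84 and 4.94 at day 3, and 2.63 and 2.69 at day 7. Over all tested probe sets these medians lay between -0.08 and -0.04. The members were chosen with earlier results of these data known. In each sham group 6 of the 9 had a mean below log2 4, the level of the filter, so they passed it largely through injured arrays. The counts and shares are therefore a description and no test of the set. In WT, the monocyte attractants Ccl2 and Ccl7 fell steeply by day 7, Ccl12 and the Ccr1 ligand Ccl3 remained far above sham, and Ccl5 was called higher at day 1 and day 7 but not at day 3.

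**Figure D1:**
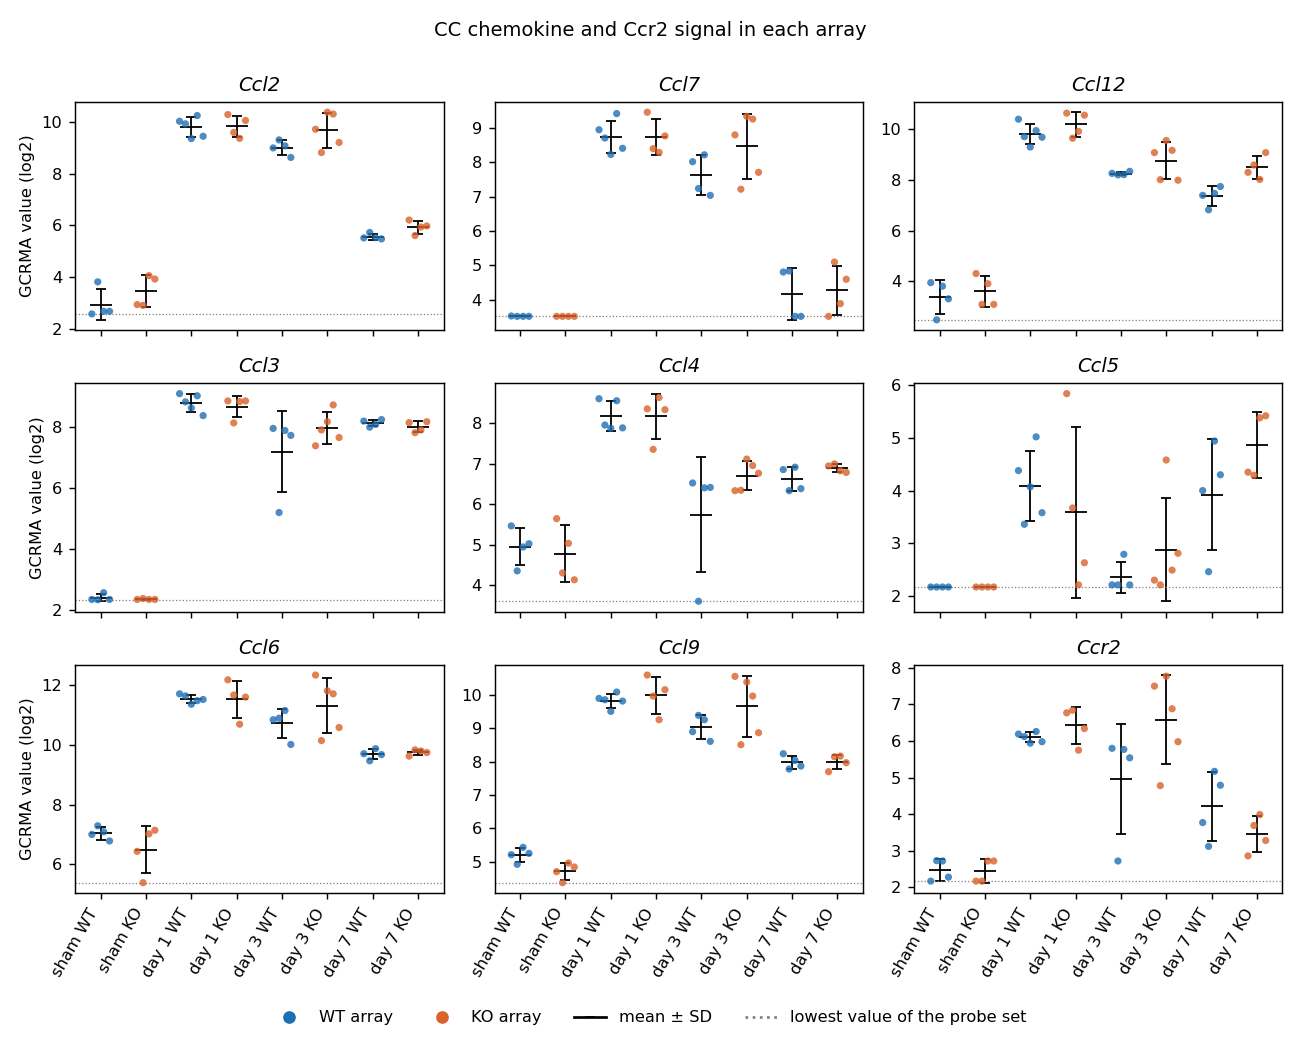
Signal of each of the 9 genes (GCRMA value, log2, vertical axis) in every array of the 8 groups (horizontal axis), blue for WT and orange for KO, with the group mean ± SD as black bars and the lowest value of the probe set as a dotted line. Ccl7 and Ccl5 sit on that line in all 8 sham arrays, Ccl2 and Ccl7 drop between day 3 and day 7, Ccl3 does not, and 1 day 3 WT array is far below its group for Ccl3, Ccl4 and Ccr2.

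Ccl2, the main monocyte attractant, read 2.58, 3.82, 2.68 and 2.68 in sham WT and 2.94, 2.91, 4.06 and 3.93 in sham KO. At day 1 it read 10.03, 9.93, 9.36, 10.25 and 9.45 in WT and 10.29, 9.60, 9.37 and 10.06 in KO. Every day 1 array was thus above every sham array by more than 5 log2 units. The WT difference of 6.87 ± 0.30 is at least 117-fold (adjusted p = 8.29e-17, limma), and the KO difference was 6.37 ± 0.31, or 82.8-fold (adjusted p = 1.55e-15). Day 3 arrays read 9.0, 9.31, 9.08 and 8.63 in WT and 9.72, 8.82, 10.38, 10.31 and 9.21 in KO, and day 7 arrays 5.52, 5.73, 5.53 and 5.48 in WT and 6.21, 5.61, 5.94 and 5.98 in KO. The day 7 arrays lay between the sham and the day 3 arrays with no overlap in either genotype. From day 3 to day 7 Ccl2 fell by 3.44 ± 0.31 in WT (10.8-fold, adjusted p = 9.24e-09) and by 3.76 ± 0.30 in KO (13.5-fold, adjusted p = 4.11e-10). It was still 2.63 ± 0.31 above sham in WT and 2.48 ± 0.31 in KO at day 7.

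Ccl7, a close relative of Ccl2 that also signals through Ccr2, read 3.52 or 3.53 in all 8 sham arrays, at its floor. At day 1 it read 8.95, 8.71, 8.23, 9.42 and 8.41 in WT and 9.46, 8.40, 8.29 and 8.77 in KO. These are at least 37.3-fold and at least 37.0-fold above sham (5.22 ± 0.39 and 5.21 ± 0.41; adjusted p = 7.55e-12 and 3.34e-11, limma). Day 3 arrays read 8.02, 7.24, 8.22 and 7.04 in WT and 8.80, 7.22, 9.34, 9.26 and 7.71 in KO, all above every sham array. By day 7 the arrays read 4.81, 4.84, 3.52 and 3.52 in WT and 3.52, 5.10, 3.89 and 4.60 in KO. So 3 of the 8 day 7 arrays were back on the floor, and the day 7 difference from sham was not called in WT (0.65 ± 0.41, adjusted p = 0.187) or in KO (0.76 ± 0.41, adjusted p = 0.132). The fall from day 3 to day 7 was 3.46 ± 0.41 in WT and 4.19 ± 0.39 in KO on the log2 scale, as differences of -3.46 and -4.19 (adjusted p = 7.20e-07 and 6.44e-09).

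Ccl12, a mouse Ccr2 ligand in the same run of genes as Ccl2 and Ccl7, stayed further above sham at day 7 than they did. Sham arrays read 3.94, 2.47, 3.80 and 3.30 in WT and 4.30, 3.08, 3.90 and 3.08 in KO, and day 1 arrays 10.40, 9.71, 9.30, 9.95 and 9.69 in WT and 10.64, 9.65, 9.92 and 10.56 in KO. The groups did not overlap, and the differences were 6.43 ± 0.33 in WT (86.3-fold, adjusted p = 2.70e-15, limma) and 6.60 ± 0.35 in KO (97.1-fold, adjusted p = 6.99e-15). Day 3 arrays read 8.26, 8.20, 8.21 and 8.34 in WT and 9.08, 8.01, 9.56, 9.17 and 7.99 in KO. The 4 WT arrays lay within 0.07 (SD) of each other in spread, while the KO arrays fell into a higher 3 and a lower 2, on either side of the WT values. At day 7 the arrays read 7.39, 6.82, 7.47 and 7.74 in WT and 8.30, 8.59, 8.02 and 9.08 in KO, so every KO array was above every WT array. The day 7 WT arrays also all lay below the day 3 WT arrays, while in KO the 2 days overlapped. Ccl12 was then 3.98 ± 0.35 above sham in WT (15.7-fold) and 4.91 ± 0.35 in KO (30.0-fold), and its change from day 3 to day 7 was not called in either genotype (-0.90 ± 0.35, adjusted p = 0.0714, and -0.27 ± 0.33, adjusted p = 0.573).

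Ccr2, the receptor on inflammatory monocytes that Ccl2, Ccl7 and Ccl12 share, read 2.17 to 2.73 in the 8 sham arrays. Day 1 arrays read 6.19, 6.12, 5.94, 6.26 and 5.98 in WT and 6.77, 6.84, 5.75 and 6.34 in KO, all far above sham. The differences were 3.62 ± 0.52 in WT (at least 12.3-fold, adjusted p = 1.90e-06, limma) and 3.98 ± 0.55 in KO (at least 15.8-fold, adjusted p = 1.37e-06). Day 3 WT arrays read 5.80, 2.72, 5.77 and 5.54, and day 3 KO arrays 7.50, 4.78, 7.77, 6.88 and 5.98. WT replicate 2 was at the sham level, and the KO arrays spanned 3 log2 units. Day 7 arrays read 3.77, 3.12, 5.17 and 4.79 in WT and 2.86, 3.69, 3.99 and 3.28 in KO. They did not overlap the sham arrays of their genotype, and the difference was called in WT (1.74 ± 0.55, adjusted p = 0.00933) but not in KO (1.01 ± 0.55, adjusted p = 0.135). In KO, Ccr2 fell by 3.13 ± 0.52 from day 3 to day 7 (adjusted p = 7.02e-05). In WT that step was -0.74 ± 0.55 (adjusted p = 0.373), and without day 3 WT replicate 2 it was -1.49 and called (adjusted p = 0.0374).

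Ccl3, a macrophage inflammatory protein that acts on Ccr1, read 2.33 to 2.56 in the 8 sham arrays, at its floor. At day 1 it read 9.09, 8.82, 8.62, 9.02 and 8.37 in WT and 8.85, 8.13, 8.83 and 8.85 in KO. That is at least 83.9-fold above sham in WT and at least 79.8-fold in KO (6.39 ± 0.34 and 6.32 ± 0.36; adjusted p = 5.31e-15 and 3.10e-14, limma). Day 3 arrays read 7.95, 5.19, 7.88 and 7.72 in WT and 7.38, 7.90, 8.17, 8.72 and 7.65 in KO, and day 7 arrays 8.19, 7.99, 8.08 and 8.24 in WT and 8.14, 7.81, 7.90 and 8.17 in KO. Apart from day 3 WT replicate 2, the injured arrays of day 3 and day 7 thus lay between 7.38 and 8.72. At day 7 Ccl3 was still 5.73 ± 0.36 above sham in WT (at least 53.2-fold) and 5.66 ± 0.36 in KO (at least 50.5-fold). The difference of day 7 from day 3 was not called in WT (0.94 ± 0.36, adjusted p = 0.0646; 0.27 without replicate 2) or in KO (0.04 ± 0.34, adjusted p = 0.940).

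Ccl4, the neighbour of Ccl3 and also a macrophage inflammatory protein, had a signal above its floor already in sham: 5.46, 4.35, 4.94 and 5.02 in WT and 5.64, 4.30, 5.03 and 4.13 in KO. The day 1 arrays read 8.60, 7.95, 7.87, 8.55 and 7.88 in WT and 8.35, 7.35, 8.63 and 8.33 in KO. These did not overlap sham, with differences of 3.23 ± 0.41 (9.36-fold, adjusted p = 2.01e-07, limma) and 3.39 ± 0.43 (10.5-fold, adjusted p = 2.88e-07). Day 3 WT arrays read 6.52, 3.60, 6.40 and 6.41, so replicate 2 was below all sham arrays and the other 3 above them. Over all 4 arrays the day 3 WT difference from sham was not called (0.79 ± 0.43, adjusted p = 0.111). Without replicate 2 it was 1.50 ± 0.31 and called (adjusted p = 0.000155). Day 3 KO arrays read 6.33, 6.34, 7.11, 6.95 and 6.76, and the KO difference was called (1.92 ± 0.41, adjusted p = 0.000149). At day 7 the arrays read 6.85, 6.33, 6.91 and 6.38 in WT and 6.94, 6.99, 6.82 and 6.78 in KO, and Ccl4 was 1.67 ± 0.43 above sham in WT and 2.11 ± 0.43 in KO, called in both.

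Ccl5, a chemokine that T cells, NK cells and macrophages secrete, read 2.17 in all 8 sham arrays and stayed low elsewhere. Day 1 arrays read 4.38, 3.36, 4.07, 5.02 and 3.58 in WT and 5.84, 3.67, 2.21 and 2.63 in KO. All WT arrays were clear of the floor, while the KO arrays ran from the floor to the highest value of the gene. The WT difference of 1.91 ± 0.54 was called (at least 3.77-fold, adjusted p = 0.00389, limma). The KO difference of 1.42 ± 0.57 was called (adjusted p = 0.0421) but close to the threshold. It was 0.67 without day 1 KO replicate 1 (adjusted p = 0.302), and the call was also lost without day 1 KO replicate 2 (adjusted p = 0.0743), without any one of the 4 sham KO arrays (0.0687 to 0.0711), with no filter on low values (0.0849) or with only the arrays compared (0.118). At day 3 the arrays read 2.21, 2.21, 2.79 and 2.21 in WT and 2.30, 2.21, 4.58, 2.49 and 2.81 in KO, so that 8 of 9 arrays read 2.81 or less. No call was made there (0.18 ± 0.57, adjusted p = 0.793, in WT and 0.71 ± 0.54, adjusted p = 0.254, in KO). At day 7 the arrays read 4.00, 2.46, 4.94 and 4.30 in WT and 4.35, 4.29, 5.38 and 5.42 in KO. Ccl5 was then called higher than sham in WT (1.75 ± 0.57, at least 3.37-fold, adjusted p = 0.0103) and in KO (2.69 ± 0.57, at least 6.44-fold, adjusted p = 0.000317); without day 7 WT replicate 3 the WT difference was 1.42 (adjusted p = 0.0508).

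Ccl6 and Ccl9, mouse chemokines of macrophages and other myeloid cells, moved almost as 1 gene. For Ccl6, sham arrays ran from 6.78 to 7.29 in WT and from 5.38 to 7.14 in KO, day 1 arrays from 10.70 to 12.19 over both genotypes, and day 7 arrays from 9.47 to 9.88. Its differences from sham were 4.52 ± 0.35 at day 1 (22.9-fold, adjusted p = 1.33e-11, limma), 3.70 ± 0.36 at day 3 and 2.65 ± 0.36 at day 7 in WT, and 5.05 ± 0.36, 4.83 ± 0.35 and 3.26 ± 0.36 in KO. For Ccl9, sham arrays ran from 4.37 to 5.43 and day 1 arrays from 9.26 to 10.60, and its differences were 4.63 ± 0.30 (24.8-fold, adjusted p = 2.46e-13), 3.84 ± 0.31 and 2.78 ± 0.31 in WT and 5.28 ± 0.31, 4.94 ± 0.30 and 3.28 ± 0.31 in KO. All 12 of these differences were called, and no injured array of either gene overlapped its sham group. The day 3 KO arrays spread most: Ccl6 read 12.35, 10.15, 11.82, 11.72 and 10.59, and Ccl9 10.56, 8.51, 10.39, 9.97 and 8.87. The second probe set of each gene gave the same direction and call against sham at every time. Probe sequences were not used here, so that cross-hybridisation between these related transcripts was not tested.

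**Figure D2:**
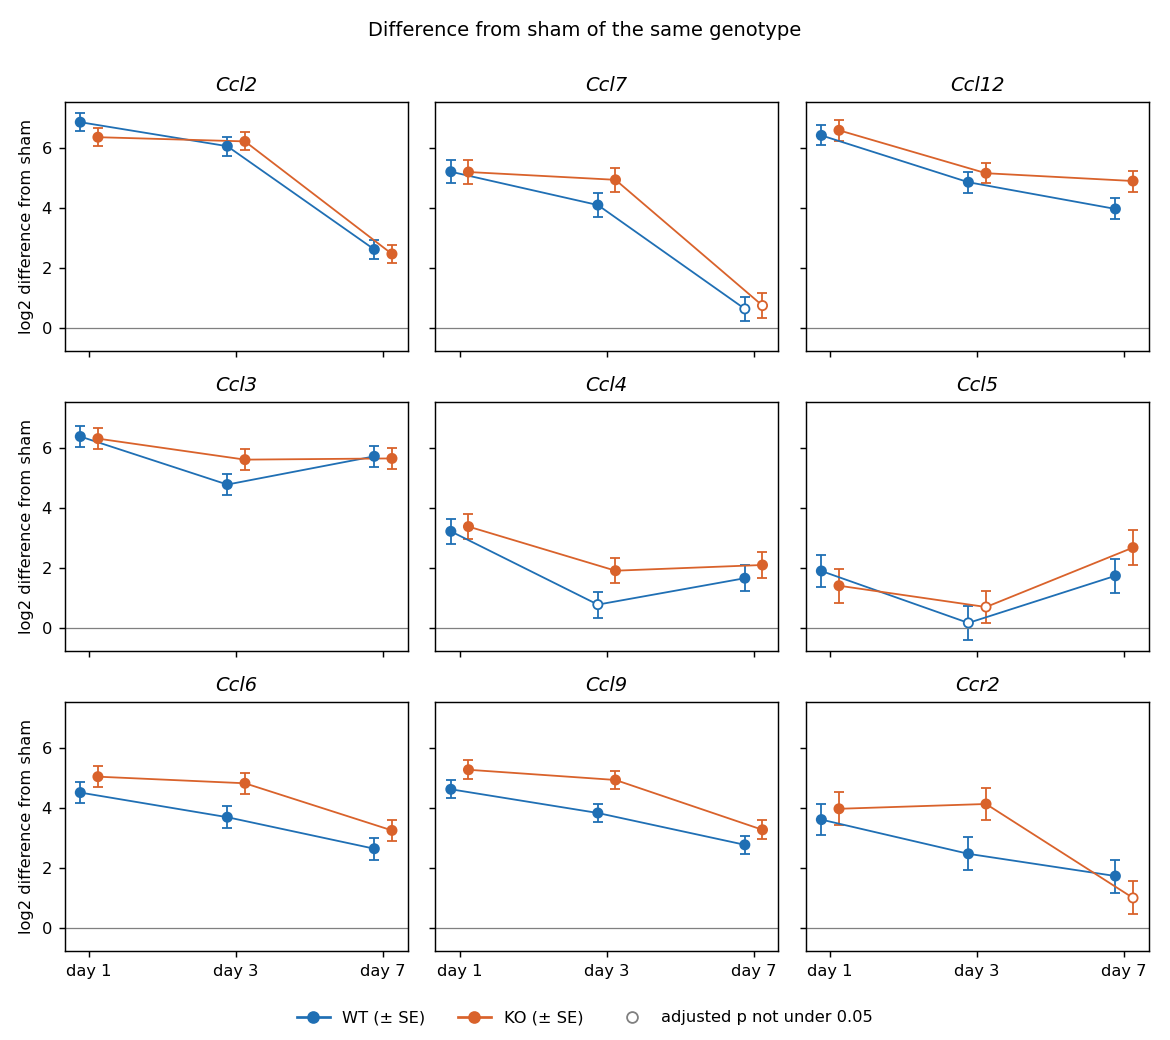
Difference from sham of the same genotype (log2, vertical axis, ± SE from limma) at day 1, day 3 and day 7 (horizontal axis) for each gene, blue for WT and orange for KO; open circles mark an adjusted p that is not under 0.05. Ccl2 and Ccl7 drop to 2.63 and 0.65 in WT by day 7 while Ccl3 stands at 5.73, and Ccl5 is open at day 3 in both genotypes.

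Between day 1 and day 3 the WT cords lost chemokine signal. In WT, 7 of 9 members were called lower at day 3 than at day 1, against 15.4% of all tested probe sets, and none higher (11.7%). The size was largest for Ccl4 (-2.44 ± 0.41), followed by Ccl5 (-1.73), Ccl3 (-1.60), Ccl12 (-1.56), Ccl7 (-1.11), Ccl2 (-0.80) and Ccl9 (-0.80). Ccl6 (-0.82, adjusted p = 0.0758, limma) and Ccr2 (-1.14, adjusted p = 0.104) were not called, although in all 9 genes every day 3 WT array read lower than every day 1 WT array, which held for 11.2% of all tested probe sets. Without day 3 WT replicate 2 the Ccl4 difference was -1.73 and Ccl7 (-0.99) was no longer called. That array was also low for Ccl3 (5.19, others 7.72 to 7.95) and Ccr2 (2.72, others 5.54 to 5.80), so their sizes rest in part on it. With only the arrays of the groups compared, the call of Ccl3 was lost (adjusted p = 0.0686, limma). The calls of Ccl2, Ccl7 and Ccl9 were near the threshold. That of Ccl2 was lost without day 1 WT replicate 1, 2 or 4 or day 3 WT replicate 1, 3 or 4, that of Ccl9 without day 1 WT replicate 1, 2, 4 or 5 or day 3 WT replicate 1, 3 or 4, and that of Ccl7 without day 1 WT replicate 1 or 4 or day 3 WT replicate 2 or 4. Quantile normalization also lost the calls of Ccl2 (adjusted p = 0.0556, limma) and Ccl9 (0.0523). Median centring lost that of Ccl2 (0.0507), and array weights that of Ccl7 (0.0693). Leaving out day 1 WT replicate 1, day 1 WT replicate 4 or day 3 WT replicate 4 each left 4 members called lower. So did leaving out day 1 WT replicates 1 and 2, whose labels conflict, and with those arrays grouped by their source and time words 2 were called lower. In KO only Ccl12 (-1.43 ± 0.33) and Ccl4 (-1.47 ± 0.41) were called lower, against 27.2% of all tested probe sets, and none higher (19.4%). Whether the step differed between genotypes is given with the genotype comparisons.

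From day 3 to day 7, Ccl2, Ccl7, Ccl6 and Ccl9 fell in both genotypes, while Ccl12, Ccl3 and Ccl4 were not called in either. In WT, Ccl2 (-3.44), Ccl7 (-3.46), Ccl6 (-1.05) and Ccl9 (-1.06) were called lower, 4 of 9 against 10.5% of all tested probe sets, and none higher (8.64%). The call of Ccl6 (adjusted p = 0.0414, limma) was lost without day 3 WT replicate 1, 2 or 3 or any of the day 7 WT arrays, with adjusted p from 0.0581 to 0.107, and that of Ccl9 without day 3 WT replicate 2 (-0.94, adjusted p = 0.0652). Ccl5, at 1.57 ± 0.57 higher on day 7, missed the threshold (adjusted p = 0.0501). In KO, Ccl2 (-3.76), Ccl7 (-4.19), Ccr2 (-3.13), Ccl9 (-1.66) and Ccl6 (-1.57) were called lower, 5 of 9 against 14.2%, and Ccl5 higher (1.98 ± 0.54, adjusted p = 0.00697), 1 of 9 against 16.2%. The differences of Ccl12, Ccl3 and Ccl4 in KO were -0.27, 0.04 and 0.18. With the 4 alike day 7 KO arrays counted as 1 sample, only Ccl2 and Ccl7 kept their call in this step, while all 7 members called above sham KO at day 7 did.

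KO against WT, the comparison that asks whether loss of trkB.T1 alters these genes, gave no call for any of the 9 in sham, at day 1, at day 3, at day 7 or in the mean of the 4 conditions (limma). Of all tested probe sets 0.0529%, 0.549%, 0.0366%, 0.0407% and 0.126% were called in either direction in these comparisons. At an unadjusted p under 0.05 the members numbered 0, 0, 6, 1 and 2. The share of all tested probe sets under that unadjusted threshold was not counted, so these numbers have no background to be set against. The members also share the same arrays. In sham the differences ran from -0.54 for Ccl6 to 0.52 for Ccl2, and at day 1 from -0.49 for Ccl5 to 0.38 for Ccl12. When the library labelled sham KO replicate 2 was left out, Ccl2, Ccl6 and Ccl12 differed in sham by 0.70, -0.17 and 0.38, with none called. The 95% intervals at day 1 were -0.59 to 0.64 for Ccl2, -0.81 to 0.78 for Ccl7 and -0.30 to 1.06 for Ccl12.

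At day 3 all 9 KO means were above the WT means, by 0.51 to 1.63 with a median of 0.68, against a median of -0.01 over all tested probe sets. The difference was 1.63 ± 0.52 for Ccr2 (unadjusted p = 0.00428, adjusted p = 0.364, limma), 0.97 ± 0.41 for Ccl4, 0.84 ± 0.39 for Ccl7, 0.78 ± 0.34 for Ccl3, 0.68 ± 0.30 for Ccl2 and 0.62 ± 0.30 for Ccl9. It was 0.59 ± 0.35 for Ccl6, 0.52 ± 0.54 for Ccl5 and 0.51 ± 0.33 for Ccl12. In no member were the KO arrays all above the WT arrays, which at day 3 was so for 0.431% of all tested probe sets. Without day 3 WT replicate 2 the differences of Ccl3, Ccl4 and Ccr2 were 0.11, 0.25 and 0.88, and without all 3 arrays that stood apart those of Ccl3 and Ccr2 were 0.06 and 0.58. Day 3 KO replicates 1, 3 and 4 read above replicates 2 and 5 in 6 of the 9 genes (Ccl2, Ccl6, Ccl7, Ccl9, Ccl12 and Ccr2), but not in Ccl3, Ccl4 or Ccl5.

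Ccl12 at day 7 was the one member whose KO arrays lay wholly above its WT arrays in a matched condition, which at day 7 was so for 4.58% of all tested probe sets. The difference was 1.14 ± 0.35 (unadjusted p = 0.00291, adjusted p = 0.753, limma), with a 95% interval from 0.42 to 1.86. Averaged over the 4 conditions, Ccl12 differed by 0.56 ± 0.17 (adjusted p = 0.305), and Ccl2 by 0.40 ± 0.15 (adjusted p = 0.493). Ccr2 pointed the other way at day 7 (-0.76 ± 0.55), with overlapping arrays. The injury response itself did not pass the test of a difference between genotypes for any member: 0 of 9 in the step from sham to day 1 (0.0692% of all tested probe sets), day 3 (0%) or day 7 (0.00407%), from day 1 to day 3 (0.452%) or from day 3 to day 7 (0.00814%). At an unadjusted p under 0.05 there were 0, 3, 0, 0 and 1 members in these tests, again without a background share. The last was Ccr2 from day 3 to day 7, with a KO minus WT difference in the step of -2.38 ± 0.76 (adjusted p = 0.642). The fewer members called lower from day 1 to day 3 in KO than in WT are thus not shown to be a difference between genotypes.

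**Figure D3:**
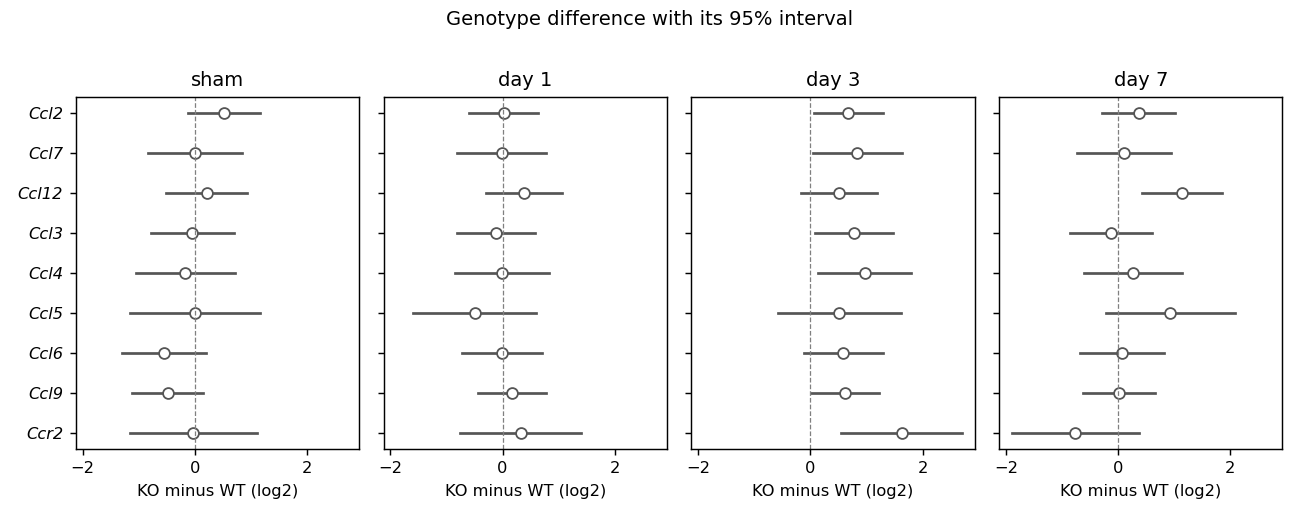
KO minus WT difference (log2, horizontal axis) of each gene, 1 panel for sham and 1 for each day after injury, as open circles with the 95% interval from limma as a line; no difference had an adjusted p under 0.05. All 9 circles lie right of 0 at day 3, with Ccr2 at 1.63, and Ccl12 lies at 1.14 at day 7.

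The nearest pattern to each member was sought among 11997 other genes by Pearson's r over the 8 group means, a description only, since the points share the same arrays. Ccl6 and Ccl9 were each other's nearest gene at 1.000. Next to Ccl2 came Lix1l and Galnt2 (0.997) and Ptpn12 (0.996), and next to Ccl7 came Ssr2, Alyref and Sec13 (0.996 each). Ccl12 was most like Trnau1ap (0.995), Pvt1 (0.991) and Ankrd49 (0.989), and Ccl3 most like Slc14a1 (0.998), Il6st (0.996), which encodes the signalling chain of the interleukin 6 receptor, and Nudt6 (0.992). For Ccl4 it was Ccdc71l (0.988), for Ccl5 Clba1 (0.970) and for Ccr2 Btaf1 (0.991). Within the set, Ccl2 and Ccl7 correlated at 0.971, and Ccl12 correlated at 0.975 with Ccl9 and 0.966 with Ccl3.

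Of 13 other CC ligands, 10 were named on the array and 4 were tested. Ccl11, an eosinophil attractant that lies between Ccl7 and Ccl12, rose at every time, by 2.04 ± 0.38, 2.73 ± 0.40 and 1.21 ± 0.40 in WT and 1.50 ± 0.40, 3.10 ± 0.38 and 2.10 ± 0.40 in KO. Ccl8, at the end of the same run, was not called at day 1 (0.17 ± 0.58 in WT and 0.53 ± 0.61 in KO) and rose at day 3 and day 7, by 1.91 ± 0.61 and 2.38 ± 0.61 in WT and 3.81 ± 0.58 and 3.03 ± 0.61 in KO. Within 1 run of genes, then, the WT means of Ccl2, Ccl7 and Ccl12 were highest at day 1 and that of Ccl11 at day 3. Ccl8 was further above sham at day 3 and day 7 than at day 1. Which of these 2 days was higher for Ccl8 is not shown. Its mean was higher at day 7 in WT and at day 3 in KO, and 0 of the 4 ligands were called higher from day 3 to day 7 in WT. Ccl27a was lower at all times (-0.97, -1.08 and -0.77 in WT), on a probe set that may also read its near-identical copies, and Ccl25 was called only at day 7 in KO (-0.49 ± 0.17).

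Of 15 other receptors, 5 were tested. Called higher in WT were 5, 4 and 4 at day 1, day 3 and day 7, and in KO 3, 4 and 3. Of all tested probe sets 24.0%, 26.1% and 21.8% were called higher in WT, and 20.9%, 28.2% and 19.8% in KO. Ccr1, the receptor of Ccl3, Ccl5, Ccl6 and Ccl9, rose by 4.20 ± 0.42, 4.40 ± 0.44 and 1.98 ± 0.44 in WT and by 4.51 ± 0.44, 4.86 ± 0.42 and 2.38 ± 0.44 in KO. Cx3cr1, the fractalkine receptor of microglia, was highest at day 7 (2.68 ± 0.20 in each genotype), when Ccr2 was lowest of the injured times. Ackr1, a scavenging receptor of venules, was higher at day 1 (0.77 in WT and 0.91 in KO) and the 1 receptor called lower at day 7 (-0.41 and -0.44). The scavenger Ackr3 was called higher at every time in both genotypes (0.51 to 1.20), and Ackr4 at every time in WT and at day 3 in KO.

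In a list of NF-kB factors and inducing cytokines, 11 of 15 genes were tested, and 10, 9 and 8 were called higher in WT at day 1, day 3 and day 7, and 8, 9 and 7 in KO, with none lower. The background shares called higher are those given for the receptors. Il6 rose at day 1 only (4.12 ± 0.62 in WT and 4.15 ± 0.66 in KO) and Il1b at day 1 (2.65 ± 0.38 and 3.48 ± 0.40) and day 3 (1.01 ± 0.40 and 1.63 ± 0.38). Both were near sham at day 7, when Ccl3 and Ccl12 were not: Il6 stood at 0.01 and -0.02 and Il1b at -0.07 and 0.43, none called. Icam1, the adhesion molecule leukocytes bind on vessels, rose by 3.62, 3.95 and 4.07 in WT, and Tlr2, a sensor of tissue damage, by 2.29, 3.27 and 4.00. None of the 11 was called between genotypes in any condition.

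Markers of the cells that make or answer these chemokines moved with injury. Of 15 tested monocyte and macrophage markers (16 in the list), 14, 15 and 13 were called higher at day 1, day 3 and day 7 in WT, and the same numbers in KO (background shares as for the receptors). Their mean level per array lay between 4.50 and 5.43 in sham. It lay between 8.28 and 9.29 on day 1, between 9.21 and 10.77 on day 3, and between 8.77 and 9.33 on day 7. Its group medians were thus highest at day 3. In WT, 7 of the 9 genes were then called below day 1, against 15.4% of all tested probe sets. In KO it was 2 of 9 against 27.2%, which is not above that share. At day 3 the marker mean was 10.33, 9.43, 10.77, 10.53 and 9.57 in KO replicates 1 to 5 and 9.78, 9.21, 9.89 and 9.60 in WT replicates 1 to 4. The same 3 KO arrays that read high for Ccl2, Ccl6, Ccl7, Ccl9, Ccl12 and Ccr2 were high here. The part of these markers in the chemokine values was not tested. Among them Arg1, the arginase of wound macrophages, read 2.17 to 3.01 in sham and 10.80 to 11.74 at day 1, while Plac8, a gene of circulating monocytes, read 2.86 in the lowest day 3 WT array.

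Resting microglia markers were mixed at day 1 and mostly higher later. For comparison, 28.9%, 35.7% and 31.7% of all tested probe sets were called lower than sham at the 3 times in WT, and 23.7%, 36.7% and 27.4% in KO. The shares called higher were 24.0%, 26.1% and 21.8% in WT and 20.9%, 28.2% and 19.8% in KO. Of 9 tested (10 in the list), 3 were called higher and 2 lower at day 1 in WT, 6 and 1 at day 3, and 7 and 0 at day 7; in KO the counts were 2 and 4, 6 and 0, and 8 and 0. P2ry12, a purine receptor of resting microglia, averaged 8.01 in sham WT, 5.21 at day 1, 8.19 at day 3 and 8.77 at day 7. Fcrls was the 1 microglial gene called between genotypes, lower in KO at day 1 (-0.93 ± 0.21, adjusted p = 0.0304, limma). Day 3 WT replicate 2, which was lowest for Ccl3, Ccl4 and Ccr2, had a microglial list mean of 7.15 against 8.45 to 8.73 in the other day 3 WT arrays, and a neutrophil list mean of 6.39 against 7.89 to 8.99. Of 8 tested neutrophil markers (12 in the list), 1, 1 and 2 were called higher in WT and 1, 2 and 2 in KO, and none lower; the list means ran from 6.59 to 8.87 already in sham. None of 12 T and NK cell or 5 B cell markers passed the filter, with no value above 3.34 and 3.79 in the 10 and 4 of them named on the array.

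**Figure D4:**
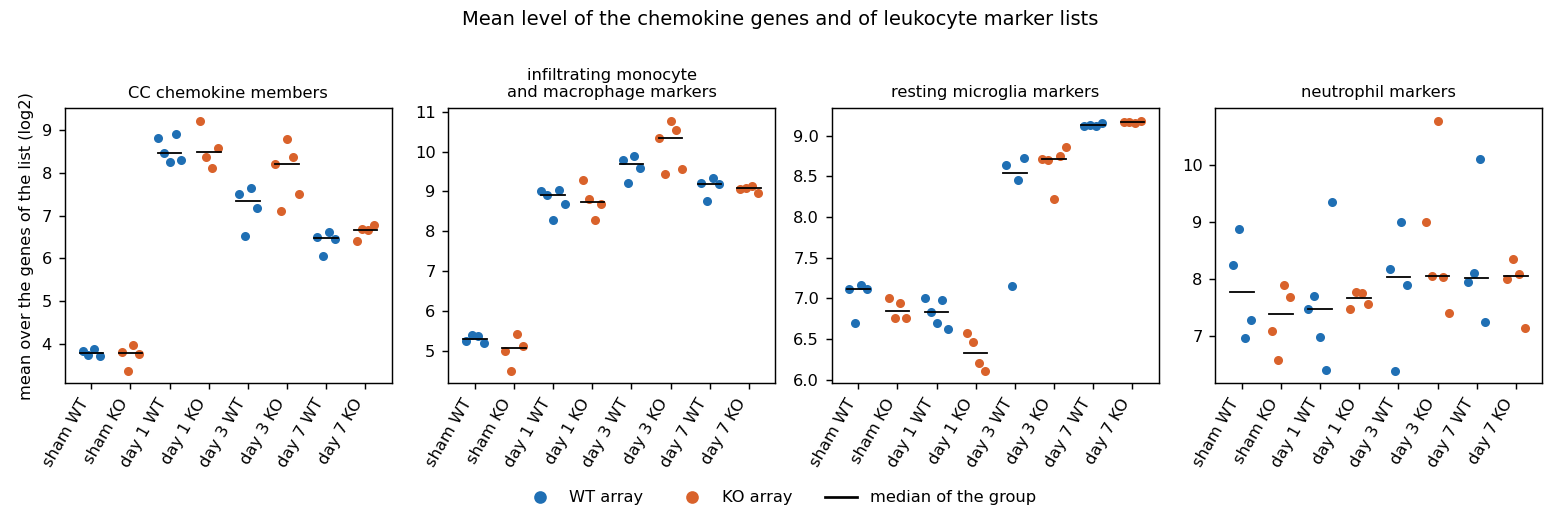
Mean level (log2, vertical axis) over the 9 genes described here and over 3 lists of leukocyte markers in every array of the 8 groups (horizontal axis), blue for WT and orange for KO, with the group median as a line. The chemokine mean is highest at day 1 in both genotypes (medians 8.46 and 8.48), the monocyte and macrophage mean at day 3 (9.69 and 10.33) and the microglial mean at day 7 (9.12 and 9.17).

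Lists for the other cells of the sample gave these counts against sham at day 1, day 3 and day 7. The shares of all tested probe sets called higher and lower are those given with the microglia markers, and some of the counts lie near or below them. Of 7 astrocyte markers, 2, 2 and 3 were higher and 5, 2 and 0 lower in WT, and 2, 2 and 3 higher and 3, 2 and 0 lower in KO. Of 5 tested endothelial markers, 5, 5 and 1 were higher in WT and 2, 5 and 1 in KO, with none lower. Of 6 neuron markers, 3, 6 and 6 were lower in WT and 1, 6 and 5 in KO, and of 5 tested oligodendrocyte markers 3, 5 and 3 were lower in each genotype. Skeletal muscle markers, which do not belong to cord tissue, were not called in WT, and of 9 in KO 9, 0 and 8 were lower. Their list means were already high in sham KO (8.26, 10.11, 10.09 and 11.24), against 3.61, 9.65, 3.14 and 9.18 in sham WT. The KO counts are thus set against the sham group with the higher muscle signal. Day 3 KO list means were 11.79, 5.67, 14.03, 4.96 and 4.77. Replicates 1 and 3, the highest for muscle, were also the highest for Ccr2, while replicate 4 was low for muscle and read 6.88 for Ccr2. The part of muscle RNA in the results was not tested.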

How the data were processed

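Total RNA was labelled as cRNA from 1 µg by the Affymetrix protocol, per the labels. The deposited log2 values were computed by GCRMA, per the submitters' processing notes (version not stated), and were used as given. The sources used here do not give the genome build. The lowest value was 2.17, and 33.7% of values lay within 0.1 of it. Probe sets were matched to genes by the platform table, with the RefSeq symbol where its gene identifier was in RefSeq. Of them 34945 had 1 gene, 932 several and 9160 none, without 64 array controls. A probe set was tested if 4 or more arrays read log2 4 or higher (24573, with 11998 genes).

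Groups came from the titles. limma 3.58.1 in R 4.3.3 fitted 8 group means to all 34 arrays (26 residual and 2.62 prior degrees of freedom), with Benjamini-Hochberg adjustment over all probe sets tested in each of 20 comparisons; the fit was tested on simulated data. The probe set with the highest mean stood for a gene. All 9 members were named, and of the 13 other lists up to 4 genes with large differences or a role beside a member. The members and lists were chosen with earlier results of these data known. Replicates are labelled biological, but nothing else says how animals were used, so p-values measure the spread between these arrays, and their number limits precision. Replicate numbers did not pair arrays across groups: deviations of same-numbered arrays correlated at 0.005 on average.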

Additional observations from a re-analysis of the deposited data

Results flagged for a closer look

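In 8 of 67 sets of a gene and a group of 4 or 5 arrays, 1 array lay far from the others by Dixon's test. The rate of about 1 in 20 for that test assumes independent values without a floor. Some sets have most arrays at the floor and sets share arrays, so the count cannot be set against that rate. Sets wholly within 0.1 of the floor were not examined. Day 3 WT replicate 2 was low in 3 of the 8: Ccl3 read 5.19 (others 7.72 to 7.95), Ccl4 3.60 (others 6.40 to 6.52) and Ccr2 2.72 (others 5.54 to 5.80). For Ccl2 the same array read 9.31, the highest of its group. In sham WT, Ccl2 read 3.82 in replicate 2 (others 2.58 to 2.68) and Ccl3 read 2.56 in replicate 3 (others 2.33 to 2.34). Ccl3 read 8.13 in day 1 KO replicate 2 (others 8.83 to 8.85). Ccl5 read 2.79 in day 3 WT replicate 3 (others 2.21) and 4.58 in day 3 KO replicate 3 (others 2.21 to 2.81).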

How the results depend on the processing

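The 67 called member differences gave 1311 values under other settings: 1243 kept direction and call, 68 kept direction without the call, and 0 reversed. With day 1 WT replicates 1 and 2 grouped by their source and time words, the count lower from day 1 to day 3 fell from 7 to 2 in WT and from 2 to 1 in KO, and that from day 3 to day 7 from 4 to 0 in WT and from 5 to 3 in KO. That grouping places arrays that read 10.03 and 9.93 for Ccl2 among day 7 and sham arrays. The WT count from day 1 to day 3 was 4 with those 2 arrays left out and 4 with no filter. The count higher from day 3 to day 7 in WT went from 0 to 1 with an intensity trend and robust prior, array weights, median centring, averaged probe sets of each gene, or the replicate number as a block, and in KO from 1 to 0 with a stricter filter (log2 of at least 6). With the day 7 KO arrays averaged, an alternative added after seeing the data like that without 3 arrays, the KO counts from day 3 to day 7 were 0 higher and 2 lower. Leaving out 1 array at a time gave 4 to 7 lower from day 1 to day 3 in WT, 0 to 1 higher and 3 to 4 lower from day 3 to day 7 in WT, 2 to 3 lower from day 1 to day 3 in KO, and against sham 7 to 8 higher in WT at day 3 and day 7 and 8 to 9 in KO at day 1. Counts between genotypes were 0 under every alternative run; Ccr2 at day 3 ranged from 0.58 to 2.08 (lowest adjusted p 0.0754) and Ccl12 at day 7 from 0.53 to 1.30 (0.0623). The replicate block changed no other count by over 1.5 times. The causes were not tested. Signal near the floor limits Ccl5, Ccl7, Ccl3 and Ccr2 in sham.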
